A study of Saccharomyces cerevisiae Vin13 with 18 samples.

Results

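The proteasome genes of the wine yeast VIN13 were followed through a Chardonnay fermentation at 2 scales. They are 36 genes chosen by name, of 5449 Saccharomyces cerevisiae genes on the array. The core particle was represented by 14 genes, 7 for its alpha and 7 for its beta subunits. The regulatory particle was represented by 18 genes, 10 for its base and 8 for its lid. The other 4 genes act on these particles: the transcription factor gene RPN4, the core activator gene BLM10, the core assembly chaperone gene UMP1 and ECM29, whose product tethers the core to the regulatory particle. All 36 had 1 probe set each.

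The proteasome is the protease that degrades proteins marked with ubiquitin. Its core particle is a barrel of stacked rings, with the cutting sites on the inner beta rings and gates formed by the outer alpha rings. The regulatory particle caps the barrel: ATPases and ubiquitin receptors of its base bind and unfold the substrate, and the lid removes the ubiquitin chain. In yeast, Rpn4 activates the proteasome genes through a shared promoter element and is itself a short-lived substrate of the proteasome, which closes a feedback loop.

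VIN13 is a commercial wine strain of S. cerevisiae. It was grown in Chardonnay must at 20 °C from a starting OD600 of 0.1, either in commercial tanks of 300 L or in microaerobic laboratory vials of 80 ml. Cells from tanks and from vials were taken on days 2, 5 and 10, with 3 biological replicates per scale and day, which gives 6 groups of 3 arrays and 18 arrays in all. Transcript levels were compared between tanks and vials on each day, between successive days in tanks and in vials, and for the change between days in tanks against that in vials. Tanks and vials differed in volume and vessel, and only the vials are described as microaerobic. The effects of these, and of any other condition that differed, cannot be told apart. The growth phase on each day is not given in the sources used here.

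RNA was hybridised to an Affymetrix array, and all values below are log2 of the deposited signal. The array reads transcripts in bulk and relative to all labelled RNA, so fewer expressing cells and less RNA per cell cannot be told apart. Levels of different probe sets were not compared with each other. Between 5357 and 5387 genes per array lay above background, a log2 signal of 4.40. All 36 proteasome genes did so on all 18 arrays, with group means between 9.62 and 14.84. Replicates correlated with r of at least 0.974 in tanks on day 10 and of at least 0.9897 in the other groups (across genes, which are not independent replicates). Tank replicate 2 of day 10 stood apart from its group, and calls of members that changed without it are given below. Control probe sets at the 3′ end read higher than those at the 5′ end of the same transcript, by a mean log2 difference of 0.83 in tanks and 1.00 in vials on day 2. That difference was 1.15 in tanks and 1.46 in vials on day 5, and 1.36 in tanks and 1.78 in vials on day 10. Its part in the results below was not tested.

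**Figure D1:**
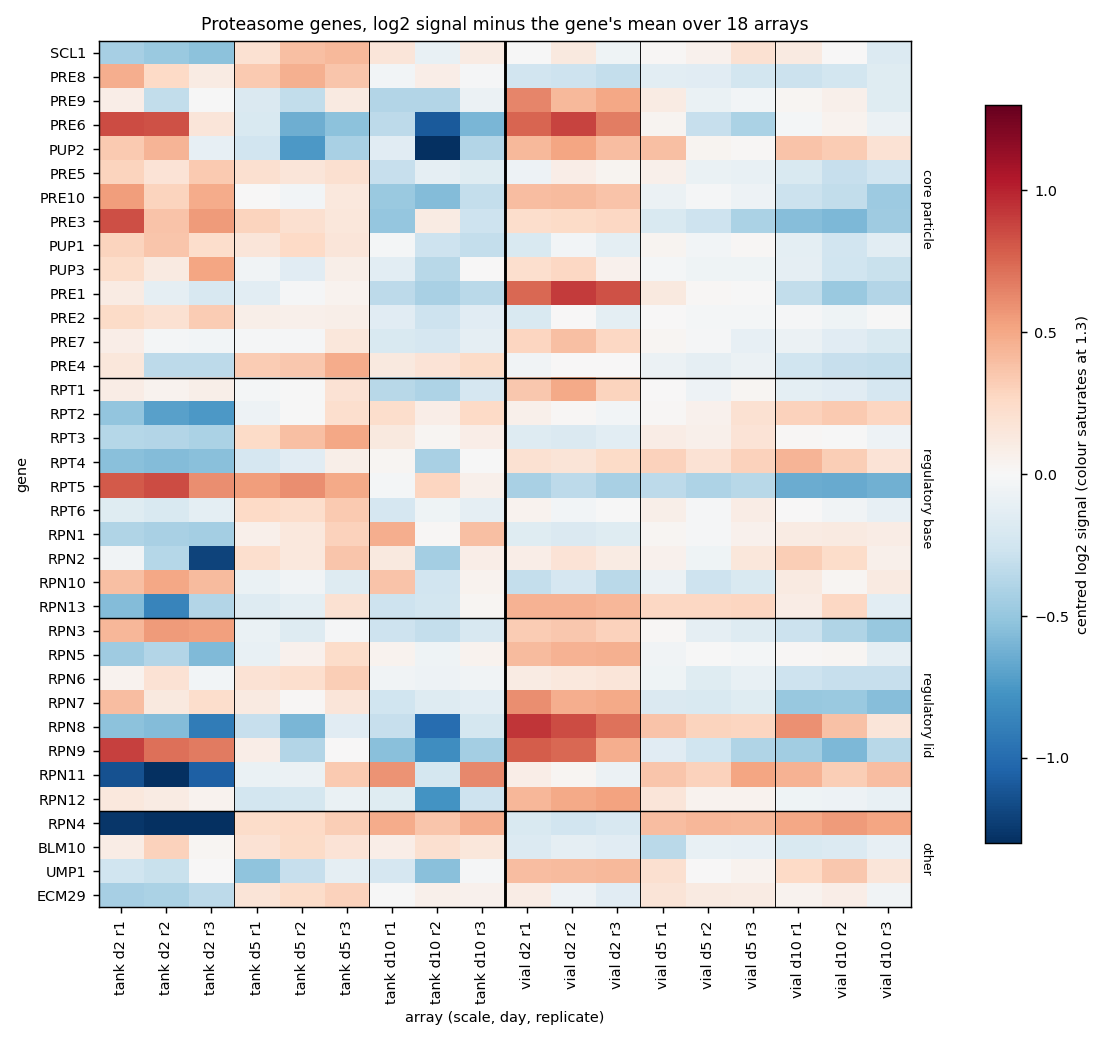
Log2 signal of the 36 proteasome genes (rows, grouped by particle) on the 18 arrays (columns, tanks left of vials, days 2, 5 and 10), minus each gene's mean over all arrays and shown as colour. On day 2, RPN4 and RPN11 are low on all 3 tank arrays, RPN8 is low on the tank arrays and high on the vial arrays, and RPT5 is high on the tank arrays.

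A gene is said here to be called where limma gave a Benjamini-Hochberg adjusted p under 0.05 over all 5449 genes in a comparison. On day 2 the genes of the regulatory particle were mostly lower in tanks than in vials, whereas those of the core particle differed in both directions. Of the 36 genes, 19 were called lower and 8 higher in tanks (52.8% and 22.2%). Of all genes, 39.1% were called lower and 38.2% higher, so calls were common on this day. The median log2 difference, tanks minus vials, was −0.24 over the 36 genes and −0.01 over all genes. In the regulatory particle 12 of 18 genes were called lower and 2 higher, with a median of −0.29. In the core particle 4 of 14 genes were called lower and 5 higher, with a median of −0.06. The core median minus the regulatory median was 0.23, and was not tested. The differences of single genes overlapped, from −0.90 to 0.56 in the core and from −1.50 to 1.14 in the regulatory particle. The core minus regulatory median of a single array had an SD of 0.069 between replicates, which does not measure the spread over genes. The tank and vial arrays did not overlap for 29 of the 36 genes, and for 82.2% of all genes.

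Among the core genes on day 2, PRE8 encodes the alpha 2 subunit. Its log2 signal was 12.56, 12.35 and 12.19 in tanks, against 11.84, 11.81 and 11.77 in vials. Every tank array was above every vial array, by a log2 difference of 0.56 ± 0.09 (SE, n = 3 arrays per group; limma adjusted p = 2.26e-05). The 3 beta subunits that carry the cutting sites were called higher in tanks as well. PUP1, for the trypsin-like site, differed by 0.41 and PRE2, for the chymotrypsin-like site, by 0.37. PRE3, for the caspase-like site, differed by 0.34, but its call was lost without tank replicate 1 of day 2 (0.21, adjusted p = 0.166) and without any 1 of the 3 vial arrays of day 2 (adjusted p between 0.0513 and 0.0662). PRE5, the alpha 6 subunit, differed by 0.25, and its call was lost without vial replicate 1 of day 2 (0.20, adjusted p = 0.056). In the opposite direction, PRE1, the beta 4 subunit, had log2 signals of 12.24, 12.02 and 11.92 in tanks, against 12.88, 13.05 and 12.96 in vials. These arrays did not overlap, and the difference was −0.90 ± 0.09 (SE; adjusted p = 1.37e-07 in limma). PRE9 (alpha 3) was lower in tanks by a log2 difference of −0.60, SCL1 (alpha 1) by −0.50 and PRE7 (beta 6) by −0.30. The PRE7 difference was −0.11 (adjusted p = 0.197) once a smooth trend on gene length was removed. The remaining core genes PRE4, PRE6, PRE10, PUP2 and PUP3 were not called, with differences between −0.22 and 0.11.

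In the base of the regulatory particle, 7 of 10 genes were called lower in tanks on day 2, but RPT5 and RPN10 went the other way. RPT5 encodes 1 of the 6 ATPases that form the unfolding ring. Its log2 signal was 12.98, 13.03 and 12.78 in tanks, against 11.76, 11.84 and 11.76 in vials. All tank arrays lay about 1 log2 unit above the vial arrays, and the difference was 1.14 ± 0.09 (SE; adjusted p = 6.86e-09 in limma), or 2.21-fold. RPN10, a ubiquitin receptor, had 11.99, 12.10 and 12.02 in tanks, against 11.29, 11.39 and 11.26 in vials. The groups did not overlap, with a difference of 0.73 ± 0.12 (SE; adjusted p = 2.5e-05). RPN13, another ubiquitin receptor gene of the base, was lower in tanks. It had 10.76, 10.46 and 10.94 in tanks, against 11.77, 11.77 and 11.75 in vials, a difference of −1.04 ± 0.13 (SE; adjusted p = 1.79e-06). The vial arrays of RPN13 lay close together, and the tank arrays spread more widely below them. The ATPase genes RPT4, RPT2, RPT1 and RPT3 were lower by log2 differences of −0.75, −0.67, −0.31 and −0.23, the last of which was −0.16 (adjusted p = 0.0652) with each array centred on its median. RPT6, the remaining ATPase gene, differed by −0.16 (adjusted p = 0.0515), and was called without tank replicate 2 of day 10 (adjusted p = 0.0474). The scaffold gene RPN2 was lower by −0.66, but tank replicate 3 stood at 11.23 while the other tank arrays stood at 12.39 and 12.07. Without that replicate the difference was −0.33 and no longer called (adjusted p = 0.0641). The second scaffold gene, RPN1, was lower by −0.25, and its call was lost without any 1 of the 6 arrays of day 2 (adjusted p between 0.0502 and 0.0693), with centring (−0.18, adjusted p = 0.0884) and with the length trend removed (−0.22, adjusted p = 0.0558).

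In the lid, 5 of 8 genes were called lower in tanks on day 2 and 0 higher, with 3 not called. RPN8, which forms the deubiquitinase dimer with RPN11, had log2 signals of 11.82, 11.79 and 11.43 in tanks, against 13.28, 13.20 and 13.05 in vials. The groups were more than 1 log2 unit apart, with a difference of −1.50 ± 0.18 (SE; adjusted p = 8.66e-07 in limma). RPN11, whose product cuts the ubiquitin chain from the substrate, had 10.74, 10.53 and 10.81 in tanks, against 11.96, 11.90 and 11.79 in vials. Again no arrays overlapped, and the difference was −1.19 ± 0.18 (SE; adjusted p = 1.14e-05). The structural lid genes RPN5, RPN12 and RPN7 were lower by −0.91, −0.39 and −0.27. RPN3, RPN6 and RPN9 were not called, with differences of 0.18, −0.07 and 0.09. At an unadjusted p under 0.05 in limma, 1 lid gene, RPN3, was higher in tanks, and limma with array weights called it higher (0.18, adjusted p = 0.0161).

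Of the 4 genes that act on the particles, 3 were lower in tanks on day 2. RPN4 had log2 signals of 13.05, 12.92 and 12.67 in tanks, against 14.11, 14.06 and 14.10 in vials. Every tank array was below every vial array by more than 1 log2 unit, and the difference was −1.21 ± 0.09 (SE; adjusted p = 3.58e-09 in limma), which is 0.432 times the vial level. UMP1 had 10.95, 10.92 and 11.22 in tanks, against 11.62, 11.63 and 11.64 in vials, a difference of −0.60 ± 0.13 (SE; adjusted p = 0.000457). ECM29 had 9.58, 9.60 and 9.67 in tanks, against 10.11, 9.95 and 9.86 in vials, a difference of −0.36 (adjusted p = 0.000614). BLM10 was the exception among them. It had 11.55, 11.75 and 11.48 in tanks, against 11.27, 11.33 and 11.30 in vials, a difference of 0.29 (adjusted p = 0.00662). Gene length moved with the day 2 difference, though not steadily. Over all genes the median difference was −0.40 for genes under 600 nt, 0.20 for those from 1200 to 1800 nt and 0.01 for longer ones. UMP1 is 447 nt long, and its difference was −0.16 (adjusted p = 0.263) once a smooth trend on length was removed.

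**Figure D2:**
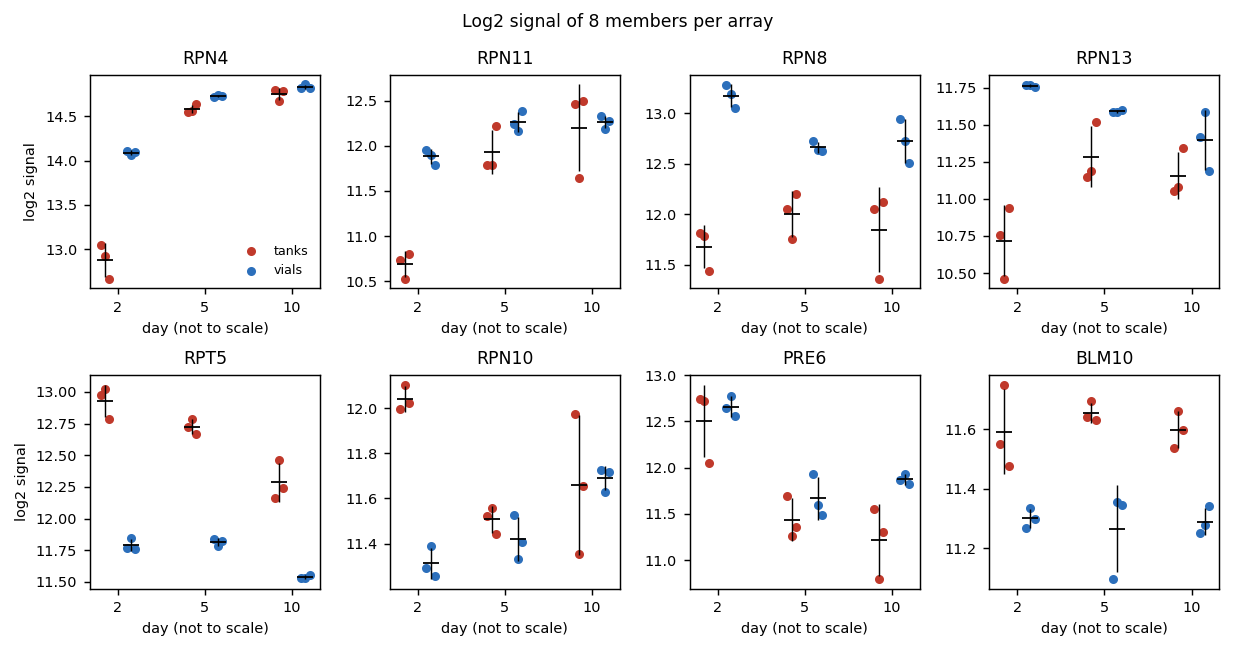
Log2 signal on each array for RPN4, RPN11, RPN8, RPN13, RPT5, RPN10, PRE6 and BLM10 on days 2, 5 and 10 (points; tanks left of vials; day spacing not to scale), with the group mean and SD (bars, n = 3). RPN4 stands at 12.67 to 13.05 in tanks and at 14.06 to 14.11 in vials on day 2, and between 14.55 and 14.86 on all later arrays.

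By day 5 fewer proteasome genes differed between the scales. The share called higher in tanks was close to that of all genes, and the share called lower was smaller than that of all genes. Of the 36, 11 were called higher and 4 lower (30.6% and 11.1%), against 33.1% and 28.8% of all genes. The median log2 difference was 0.09 over the 36 genes and 0.02 over all genes. The groups did not overlap for 20 of the 36, and for 66.2% of all genes. The core and regulatory medians, both 0.09, differed by −0.003. A repeated quantile normalization gave 11 higher and 7 lower, and limma with array weights 12 and 8. The 4 lower calls became 2 without tank replicate 1 or without vial replicate 1 of day 5, and 7 without tank replicate 2 of day 10, which enters through the pooled spread. The 3 further genes were RPN11, RPN13 and RPN12, at −0.33, −0.31 and −0.26.

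RPT5 was still clearly higher in tanks on day 5. Its log2 signal was 12.72, 12.79 and 12.67 in tanks, against 11.84, 11.78 and 11.82 in vials, a difference of 0.91 ± 0.09 (SE; adjusted p = 2.86e-07 in limma). PRE8, PRE3 and PRE4 followed, with differences of 0.56, 0.51 and 0.48 (adjusted p = 5.2e-05, 0.00342 and 0.000991), so that beta 1, beta 7 and alpha 2 genes were among the largest differences. BLM10 had 11.64, 11.69 and 11.63 in tanks, against 11.10, 11.36 and 11.34 in vials. It did not overlap and differed by 0.39 ± 0.09 (SE; adjusted p = 0.0012). The other genes called higher were RPN6, RPN7, RPT3, SCL1, PRE5 and RPT6, with differences between 0.22 and 0.35. The calls of SCL1, PRE5 and RPT6 were each lost without 1 or another of several arrays (adjusted p between 0.0508 and 0.131). With the trend on gene length removed, RPT3, RPN7 and RPT6 were at 0.15, 0.16 and 0.12 and no longer called (adjusted p = 0.0955, 0.097 and 0.16), and 2 regulatory genes stayed called higher. Fitted on the day 5 arrays alone, 7 genes were called higher, and SCL1, PRE5, RPT3 and RPT6 were not (adjusted p between 0.0562 and 0.0818).

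RPN8 remained lower in tanks on day 5, at 12.05, 11.75 and 12.20, against 12.72, 12.64 and 12.63 in vials. The difference was −0.66 ± 0.18 (SE; adjusted p = 0.00386 in limma), with no overlap. PUP2, the alpha 5 subunit, differed by −0.62 (adjusted p = 0.0313), but lost its call without tank replicate 2 (−0.48, adjusted p = 0.13), tank replicate 3 (−0.65, adjusted p = 0.0505) or vial replicate 1 of day 5 (−0.50, adjusted p = 0.121), and with the length trend removed (−0.55, adjusted p = 0.0565). UMP1 differed by −0.40 (adjusted p = 0.0129), and lost its call without tank replicate 1 (−0.30, adjusted p = 0.0761) or vial replicate 1 of day 5 (−0.34, adjusted p = 0.0552). With the trend on gene length removed, the UMP1 difference was −0.08 (adjusted p = 0.603). RPT4 differed by −0.36 (adjusted p = 0.0122), which became −0.29 (adjusted p = 0.0589) without tank replicate 1 of day 5. RPN4 had 14.55, 14.57 and 14.64 in tanks, against 14.72, 14.75 and 14.73 in vials. These arrays did not overlap, but the difference of −0.15 was small and not called (adjusted p = 0.148). It was called under 3 alternatives: −0.30 (adjusted p = 0.00638) with the length trend removed, −0.22 (adjusted p = 0.0393) with a repeated quantile normalization and −0.16 (adjusted p = 0.0452) with array weights. ECM29 differed by 0.11 (adjusted p = 0.254), and by 0.23 (adjusted p = 0.0178) with the length trend removed.

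On day 10 the calls were split evenly. Of the 36 genes 6 were called higher and 6 lower in tanks (16.7% each), against 32.3% and 26.4% of all genes. The median difference was −0.03 over the 36 genes and 0.03 over all genes. The groups did not overlap for 17 of the 36, and for 61.6% of all genes. A repeated quantile normalization gave 5 higher and 8 lower, and limma with array weights 11 higher and 6 lower. The core median minus the regulatory median was 0.07, and −0.01 without tank replicate 2 of day 10.

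RPT5 had 12.16, 12.46 and 12.24 in tanks on day 10, against 11.53, 11.53 and 11.56 in vials. It was thus higher in tanks on every array, by 0.75 ± 0.09 (SE; adjusted p = 2.33e-06 in limma). PRE4, the beta 7 subunit, differed by 0.47 (adjusted p = 0.00125) and the lid gene RPN7 by 0.32 (adjusted p = 0.00309). BLM10 had 11.54, 11.66 and 11.60 in tanks, against 11.25, 11.28 and 11.34 in vials, a difference of 0.31 (adjusted p = 0.00691). RPN6 and PRE8 were higher as well, each by 0.24. The RPN6 call was lost with the length trend removed (0.13, adjusted p = 0.136) and in a fit of the day 10 arrays alone (adjusted p = 0.0633). The PRE8 call was lost without tank replicate 2 (0.20, adjusted p = 0.0952), vial replicate 1 (0.21, adjusted p = 0.0943) or vial replicate 2 of day 10 (0.23, adjusted p = 0.071), with a repeated quantile normalization (0.20, adjusted p = 0.0735) and in a fit of the day 10 arrays alone (adjusted p = 0.0789). Without tank replicate 2 of day 10, RPN1 was called higher as well (0.32, adjusted p = 0.0039). RPN11 had 12.46, 11.64 and 12.50 in tanks, against 12.33, 12.19 and 12.28 in vials, and was not called. Its tank replicate 2 lay below all vial arrays and its other tank arrays above them. With array weights, limma called RPN11 higher (0.23, adjusted p = 0.0441). The weights of tank replicates 1, 2 and 3 of day 10 were 0.564, 0.163 and 4.53, so the weighted tank mean rests mainly on replicate 3.

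Several of the genes that were lower in tanks on day 10 drew on tank replicate 2. PUP2 had 10.98, 9.74 and 10.75 in tanks, against 11.50, 11.47 and 11.32 in vials, a difference of −0.94 ± 0.24 (SE; adjusted p = 0.00297 in limma). RPN8 had 12.05, 11.36 and 12.12 in tanks, against 12.94, 12.73 and 12.50 in vials, a difference of −0.88 ± 0.18 (SE; adjusted p = 0.000482). For both genes replicate 2 was the lowest tank array, and all tank arrays were below all vial arrays. Without replicate 2 the PUP2 difference was −0.56 (adjusted p = 0.00964). PRE6, the alpha 4 subunit, had 11.55, 10.80 and 11.30 in tanks, against 11.87, 11.94 and 11.82 in vials. Its difference of −0.66 (adjusted p = 0.00892) became −0.45 (adjusted p = 0.0554) without replicate 2. The lid gene RPN12 differed by −0.33 (adjusted p = 0.0235), and lost its call without tank replicate 2 (−0.14, adjusted p = 0.159), vial replicate 1 (−0.32, adjusted p = 0.0578) or vial replicate 2 of day 10 (−0.33, adjusted p = 0.0554), and in a fit of the day 10 arrays alone (adjusted p = 0.131). RPT4 was lower by −0.45 (adjusted p = 0.00301) and UMP1 by −0.52 (adjusted p = 0.00287). The UMP1 difference was −0.25 (adjusted p = 0.108) with the length trend removed. RPN4 and ECM29 were not called, with differences of −0.08 (adjusted p = 0.416) and 0.01 (adjusted p = 0.93), although RPN4 was at −0.22 (adjusted p = 0.0433) with the length trend removed.

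Of the 36 genes 6 were called in the same direction on all 3 days. PRE8, RPT5 and BLM10 were higher in tanks on each day, as were 17.2% of all genes. RPT4, RPN8 and UMP1 were lower in tanks on each day, as were 15.4% of all genes. Both directions thus hold 3 of 36 genes, below the shares over all genes. The PRE8 call of day 10 and the RPT4 and UMP1 calls of day 5 are among those lost without single arrays, as given above, and the UMP1 call was lost on each of the 3 days with the length trend removed. RPT4 and RPN8 lie near each other on chromosome XV with 1 protein-coding gene between them, and RPN12 and PRE4 likewise on chromosome VI (reference assembly R64). The first pair was lower in tanks on all 3 days, whereas PRE4 was higher and RPN12 lower in tanks on day 10.

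**Figure D3:**
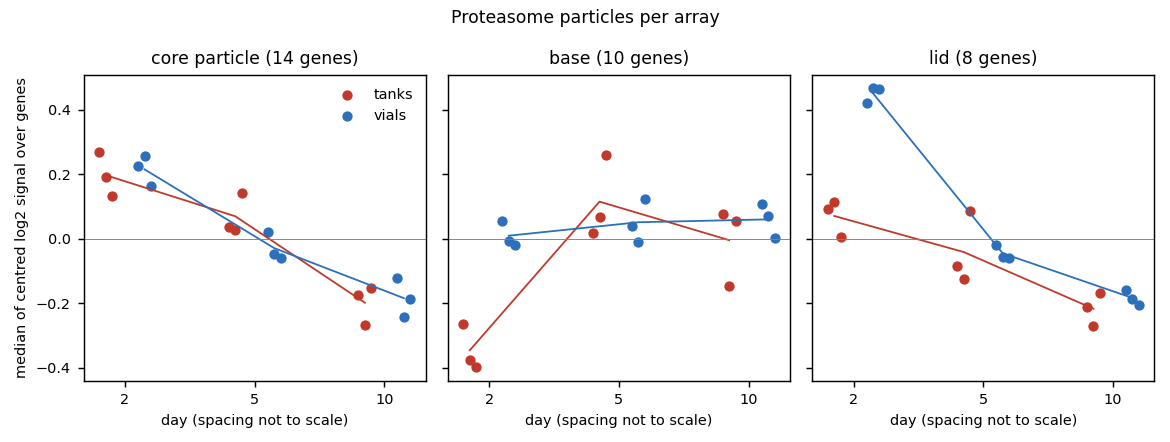
Median over the core (14), base (10) and lid (8) genes of the log2 signal minus each gene's mean over all arrays, on each array (points; tanks left of vials) by day (spacing not to scale), with lines through the means of each scale. The base stands at −0.26 to −0.40 on the tank arrays of day 2 and at −0.15 or above on the other arrays, and the lid stands at 0.42 to 0.47 on the vial arrays of day 2.

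With time, calls were spread unevenly over the particles, which was not tested as a difference between them. In tanks, 14 of the 36 genes rose and 11 fell from day 2 to day 5 (38.9% and 30.6%), against 34.2% and 39.1% of all genes. The median log2 difference, day 5 minus day 2, was 0.03 over the 36 genes and −0.05 over all genes. In the base 7 of 10 genes rose and 2 fell, with a median of 0.51. In the lid 3 of 8 genes rose and 3 fell, and in the core 2 of 14 rose and 6 fell, with medians of 0.01 and −0.09. The core median minus the regulatory median was −0.47, and −0.54 and −0.55 without replicate 2 of tank day 2 or of tank day 5. The arrays of both days did not overlap for 24 of the 36 genes, and for 76.6% of all genes. The 11 falls became 7 without tank replicate 1 of day 2 or tank replicate 2 of day 5.

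RPN4 gave the largest change in tanks among the 36 genes. Its log2 signal was 14.55, 14.57 and 14.64 on day 5, against 13.05, 12.92 and 12.67 on day 2. It rose by 1.70 ± 0.09 (SE; adjusted p = 7.95e-11 in limma), or 3.26-fold, with no overlap. RPN11 had 11.79, 11.79 and 12.22 on day 5, against 10.74, 10.53 and 10.81 on day 2, and rose by 1.24 ± 0.18 (SE; adjusted p = 7.9e-06). Both genes thus stood well above their day 2 level on each tank array of day 5. SCL1 rose by 0.82, RPN2 by 0.78, RPT3 by 0.77 and RPT2 by 0.71. Without tank replicate 3 of day 2, its lowest array, RPN2 rose by 0.44 (adjusted p = 0.0176). ECM29 had 10.18, 10.25 and 10.32 on day 5, against 9.58, 9.60 and 9.67 on day 2, and rose by 0.63 (adjusted p = 1.88e-06). RPN1, PRE4, RPN13, RPN5, RPT4, RPT6 and RPN6 rose by smaller amounts, between 0.18 and 0.58, and the call of RPN6 was lost without 1 or another of several arrays (adjusted p up to 0.172). The only core genes among the 14 were therefore SCL1 and PRE4.

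The falls in tanks were led by the core gene PRE6, which had 11.70, 11.26 and 11.36 on day 5, against 12.74, 12.72 and 12.05 on day 2. It fell by 1.07 on the log2 scale (SE 0.20, adjusted p = 0.000115 in limma), and replicate 3 of day 2 was the lowest of its group. The lid genes RPN9 and RPN3 fell by 0.85 and 0.59 (adjusted p = 1.99e-05 and 4.44e-06). PUP2 fell by 0.70 (adjusted p = 0.0139), and its call was lost without replicate 2 of tank day 2 (−0.59, adjusted p = 0.0597) or of tank day 5 (−0.56, adjusted p = 0.0676). RPN10 fell by 0.53, so that this ubiquitin receptor fell while RPN13 rose. PRE10, PRE3, PUP3, RPN12, RPT5 and PRE2 fell by between 0.19 and 0.40. Except for PRE10, the calls of these genes were lost without at least 1 tank array of day 2 or day 5 (adjusted p up to 0.162). Without tank replicate 2 of day 10, RPN8 was called as a rise (0.32, adjusted p = 0.0346). UMP1 and BLM10 were not called, at −0.13 (adjusted p = 0.373) and 0.06 (adjusted p = 0.532).

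In vials the change from day 2 to day 5 ran mostly downward. Of the 36 genes 2 rose and 15 fell (5.56% and 41.7%), against 26.5% and 41.1% of all genes, so that the share of falls was close to that of all genes. The median difference was −0.12 over the 36 genes and −0.16 over all genes. In the lid 7 of 8 genes fell, with a median of −0.44, whereas in the base 1 of 10 fell and 1 rose, with a median of 0.05. In the core 6 of 14 fell, with a median of −0.26. The arrays of both days did not overlap for 25 of the 36 genes, and for 76.9% of all genes. Centring each array on its median gave 7 rises and 13 falls, a repeated quantile normalization gave 4 and 14, and the 2 rises became 4 without tank replicate 2 of day 10, with RPN11 at 0.38 and RPN1 at 0.19 added. Centring moved the median of all genes to −0.07 and quantile normalization to −0.04.

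PRE6 had 11.93, 11.60 and 11.48 in vials on day 5, against 12.65, 12.78 and 12.56 on day 2. It fell by 0.99 on the log2 scale (SE 0.20, adjusted p = 0.000271 in limma), with no overlap. RPN9 fell by 0.93, PRE1 by 0.79 and RPN7 by 0.71 (adjusted p = 9.67e-06, 1.03e-06 and 1.06e-06). RPN5, RPN8, RPN12, RPN3 and RPN6 of the lid and PRE3, PRE9, PRE10 and PRE7 of the core fell by between 0.24 and 0.54, as did RPT1 of the base by 0.39. The RPN8 call was lost without vial replicate 1 of day 2 (−0.46, adjusted p = 0.0585), and that of RPN6 with centring (−0.15, adjusted p = 0.0906). The rises were those of RPN4 and RPT3. RPN4 had 14.72, 14.75 and 14.73 on day 5, against 14.11, 14.06 and 14.10 on day 2, and rose by 0.64 ± 0.09 (SE; adjusted p = 5.92e-06). RPT3 rose by 0.28 (adjusted p = 0.00407). UMP1 fell by 0.33 (adjusted p = 0.0334), but lost its call without any 1 vial array of day 2, or vial replicate 2 or 3 of day 5 (adjusted p between 0.0657 and 0.101), with quantile normalization, centring or the length trend removed (adjusted p between 0.0566 and 0.105). BLM10 and ECM29 were not called, at −0.03 (adjusted p = 0.74) and 0.17 (adjusted p = 0.0691). ECM29 was at 0.26 and called with centring (adjusted p = 0.0109) and with quantile normalization (adjusted p = 0.0111), and at 0.24 without vial replicate 1 of day 2 (adjusted p = 0.0225). BLM10 was at −0.23 with the length trend removed (adjusted p = 0.0287).

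**Figure D4:**
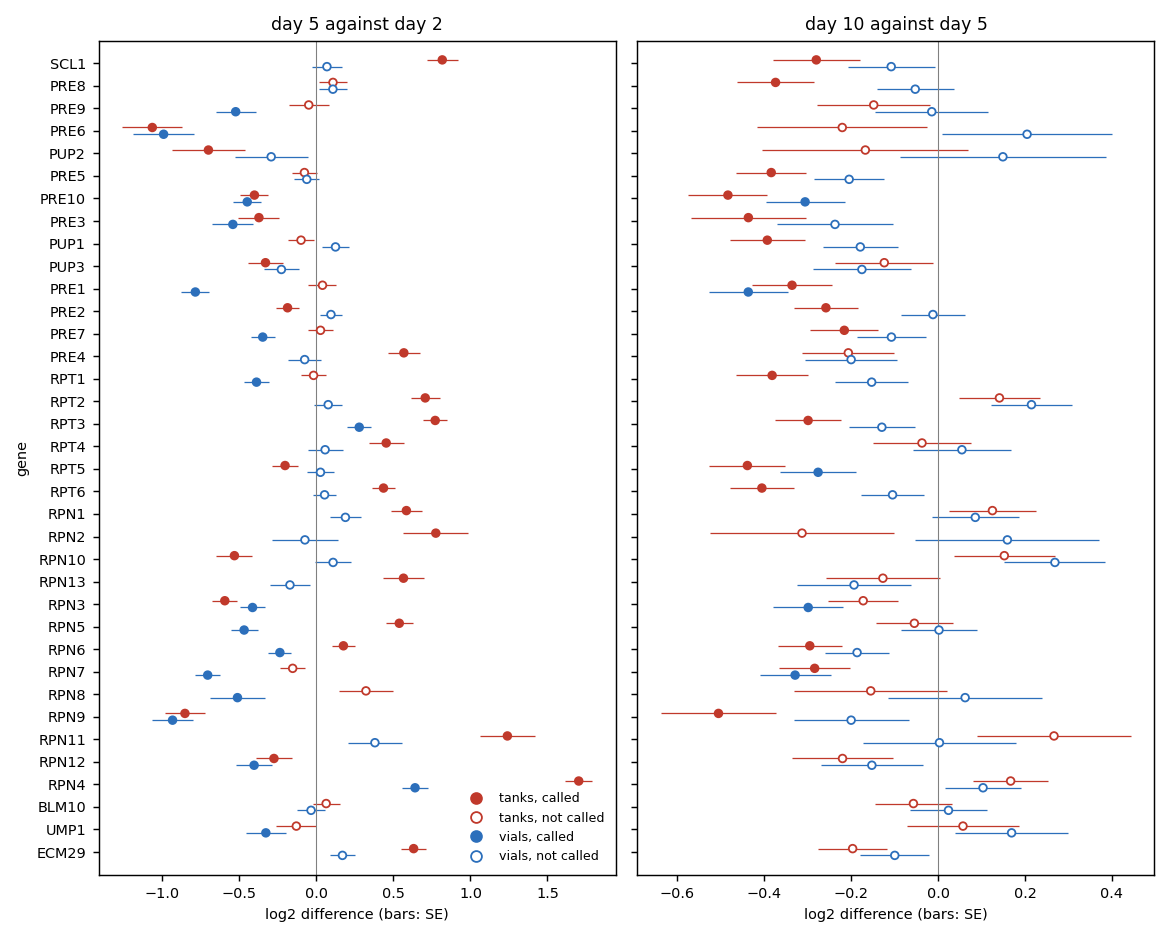
Log2 difference of each proteasome gene (rows) for day 5 against day 2 (left) and day 10 against day 5 (right), in tanks and in vials (bars: SE; filled points: adjusted p under 0.05 in limma; the horizontal scales of the panels differ). From day 2 to day 5 RPN4 rose by 1.70 in tanks and 0.64 in vials, and from day 5 to day 10 all called changes are falls.

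The difference between the scales in the change from day 2 to day 5 was tested directly. It uses the same arrays as the comparisons above and is no further evidence for them. For 20 of the 36 genes the change was called higher, more upward or less downward, in tanks than in vials, and for 2 it was called lower (55.6% and 5.56%), against 32.9% and 25.9% of all genes. The median of this difference was 0.38 over the 36 genes and 0.08 over all genes. In the regulatory particle 13 of 18 genes were called higher, with a median of 0.40, and in the core 5 of 14, with a median of 0.02. The core median minus the regulatory median was −0.38, and −0.31 without tank replicate 1 of day 2.

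RPN4 rose at both scales, but by 1.06 ± 0.12 more in tanks (SE; adjusted p = 3.05e-06 in limma). RPN5 rose in tanks and fell in vials, and the changes differed by 1.01 ± 0.12 (SE; adjusted p = 5.81e-06). It had 12.83, 12.99 and 13.17 in tanks on day 5, against 12.46, 12.55 and 12.36 on day 2. In vials it had 12.88, 12.93 and 12.90 on day 5, against 13.34, 13.38 and 13.39 on day 2. The scales thus differed for RPN5 on day 2 and overlapped on day 5. RPN11 differed by 0.86 (adjusted p = 0.0078) and RPN2 by 0.85 (adjusted p = 0.0227), and the RPN2 call was lost without tank replicate 3 of day 5 (0.79, adjusted p = 0.0509). Without tank replicate 3 of day 2, RPN2 differed by 0.52 (adjusted p = 0.0446). ECM29 differed by 0.46 (adjusted p = 0.00232). The other 15 genes called higher were PRE1, SCL1, PRE4, PRE9 and PRE7 of the core, RPT1, RPT2, RPT3, RPT4, RPT6, RPN1 and RPN13 of the base, and RPN6, RPN7 and RPN8 of the lid, with differences between 0.37 and 0.83. The calls of RPT4, PRE9 and RPN1 were each lost without at least 1 array of day 2 or day 5 (adjusted p up to 0.122).

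The 2 genes whose change was lower in tanks were RPN10 and PRE2. RPN10 differed by −0.64 ± 0.16 (SE; adjusted p = 0.0035 in limma). Its log2 signal in tanks was 11.52, 11.56 and 11.44 on day 5, against 11.99, 12.10 and 12.02 on day 2, while the vial arrays of days 5 and 2 overlapped. PRE2 differed by −0.28 (adjusted p = 0.0282), and its call was lost without tank replicate 3 (−0.25, adjusted p = 0.0663), vial replicate 1 (−0.24, adjusted p = 0.0823) or vial replicate 3 of day 2 (−0.27, adjusted p = 0.0562). BLM10 and UMP1 were not called, at 0.10 (adjusted p = 0.517) and 0.20 (adjusted p = 0.367), although BLM10 was at 0.30 (adjusted p = 0.0469) with the length trend removed.

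From day 5 to day 10 the called changes were all falls. In tanks 16 of the 36 genes fell (44.4%), against 23.6% of all genes, and 0 rose by limma, against 15.3% of all genes. At an unadjusted p under 0.05 the count of rises was 0 as well, and limma with array weights called 5. The median difference was −0.22 over the 36 genes and −0.05 over all genes. In the core 9 of 14 genes fell, in the base 4 of 10 and in the lid 3 of 8, with medians of −0.27, −0.21 and −0.20. The arrays of both days did not overlap for 21 of the 36 genes, and for 41.5% of all genes. Without tank replicate 2 of day 10, RPN11, RPN10 and RPN1 were called as rises of 0.54, 0.31 and 0.26.

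RPN9 had 11.23, 10.96 and 11.33 in tanks on day 10, against 11.86, 11.39 and 11.78 on day 5, and fell by 0.51 (SE 0.13, adjusted p = 0.00689 in limma). PRE10, which encodes the alpha 7 subunit, had 12.14, 12.06 and 12.31 on day 10, against 12.62, 12.58 and 12.75 on day 5, and fell by 0.48 (adjusted p = 0.000629). Neither gene overlapped between the days. RPT5 fell by 0.44 (adjusted p = 0.000997). PRE3 fell by 0.44 (adjusted p = 0.0164), and lost its call without tank replicate 1 of day 5 (−0.40, adjusted p = 0.0617) or without tank replicate 1 (−0.30, adjusted p = 0.104) or 3 of day 10 (−0.41, adjusted p = 0.0524). The other 12 falls, of PUP1, PRE5, PRE8, PRE1, SCL1, PRE2, PRE7, RPT6, RPT1, RPT3, RPN6 and RPN7, lay between 0.22 and 0.41, and those of SCL1, PRE7 and RPN7 were lost as calls without at least 1 tank array of day 5 or day 10 (adjusted p up to 0.154). Fitted on the tank arrays of both days alone, 8 genes were called as falls, and RPN9 was not among them (adjusted p = 0.0638). With array weights RPN9 fell by 0.28 (adjusted p = 0.0402). RPN4 had 14.79, 14.67 and 14.78 on day 10 and was not called, at 0.17 (adjusted p = 0.139), but it was called with array weights (0.20, adjusted p = 0.0147) and with the length trend removed (0.26, adjusted p = 0.0285). UMP1 was at 0.06 (adjusted p = 0.765), BLM10 at −0.06 (adjusted p = 0.65) and ECM29 at −0.20 (adjusted p = 0.0596). With array weights, limma called UMP1 as a rise (0.26, adjusted p = 0.0217) and ECM29 as a fall (−0.19, adjusted p = 0.0453).

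In vials 5 of the 36 genes fell from day 5 to day 10 (13.9%), against 19.5% of all genes, and 0 rose by limma, against 11.3% of all genes. At an unadjusted p under 0.05, 7 fell and 2 rose, and limma with array weights called 10 falls and 3 rises. The arrays of both days did not overlap for 19 of the 36 genes, and for 46.2% of all genes. Without tank replicate 1 or 2 of day 10 there was 1 rise (RPN10 at 0.27 without replicate 2), and without vial replicate 3 of day 10 there were 3 falls. PRE1 had 11.81, 11.65 and 11.75 on day 10, against 12.26, 12.14 and 12.13 on day 5, and fell by 0.44 (SE 0.09, adjusted p = 0.00195). RPN7 fell by 0.33 (adjusted p = 0.00647). These calls held with each array left out. PRE10 fell by 0.31 (adjusted p = 0.0178), a call lost without vial replicate 2 of day 5 (−0.29, adjusted p = 0.0612) or vial replicate 3 of day 10 (−0.25, adjusted p = 0.0786). RPN3 fell by 0.30 (adjusted p = 0.0105), a call lost without vial replicate 3 of day 10 (−0.25, adjusted p = 0.0513). RPT5 fell by 0.28 (adjusted p = 0.0245), a call lost without vial replicate 1 of day 5 or vial replicate 1 or 2 of day 10 (adjusted p between 0.0576 and 0.0676). RPN4 was at 0.10, UMP1 at 0.17, BLM10 at 0.02 and ECM29 at −0.10, none of them called (adjusted p of at least 0.339). With array weights, limma called UMP1 as a rise (0.26, adjusted p = 0.0162).

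Whether the change from day 5 to day 10 differed between the scales was tested as well. limma called 0 of the 36 genes in either direction, against 2.62% of all genes called higher and 2.29% called lower. At an unadjusted p under 0.05, 0 were higher and 3 lower in tanks, and limma with array weights called 1 higher and 4 lower. RPN11 was called higher (0.54, adjusted p = 0.0451) and RPT6 lower (−0.34, adjusted p = 0.0486) without tank replicate 2 of day 10. RPN4 was at 0.06 (adjusted p = 0.819), BLM10 at −0.08, UMP1 at −0.11 and ECM29 at −0.10.

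Over the 6 groups the genes varied by different amounts. RPN4 had the widest range of group means, 1.95 log2 units between day 10 vials and day 2 tanks, followed by RPN11 with 1.57, RPN8 with 1.50, PRE6 with 1.44 and RPT5 with 1.39. The narrowest ranges were those of BLM10 with 0.39, RPT6 with 0.44 and PRE2 with 0.45. A difference of at least 1 log2 unit was reached in 8 cases over the 36 genes and the 7 comparisons of 2 groups. RPN4 came close to the top of the measured scale in its late values, between 14.55 and 14.86 beside a highest signal of 15.27 on any array. Whether that narrowed its differences after day 2 was not tested.

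The core genes are shorter than most regulatory genes, with gene lengths of 597 to 867 nt (median 764.5) against 471 to 2982 nt (median 1297.5). On day 2 the shortest genes were lower in tanks over the whole array, with medians of −0.40 under 600 nt and −0.19 from 600 to 900 nt. The median was 0.20 from 1200 to 1800 nt but 0.01 for longer genes. With a smooth trend on gene length removed, the core median minus the regulatory median was 0.45 on day 2, against 0.23 without that step. It was 0.15 on day 5 and 0.15 on day 10, against −0.003 and 0.07. The separation of the particles on day 2 was thus larger with that trend removed. On day 2, differences that stayed called but moved by more than 1.5 times were PRE5 at 0.46, PRE1 at −0.58, RPT1 at −0.48, RPT3 at −0.38, RPN7 at −0.43 and RPN13 at −0.62. On day 5 these were PRE5 at 0.36 and RPN6 at 0.23.

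The machinery around the proteasome was described with lists of genes named here for their roles. Of 9 genes for assembly chaperones and the small lid subunit Sem1, 6 were higher and 3 lower in tanks on day 2, when 38.2% of all genes were higher and 39.1% lower. ADD66, a chaperone of alpha ring assembly, and NAS6, a chaperone of the base, were higher by log2 differences of 1.18 and 0.76. NAS2, another base chaperone, was lower by −1.26, and SEM1 by −3.02 (adjusted p = 6.22e-08 in limma). SEM1 had mean log2 signals of 8.89 ± 0.14 in tanks and 11.91 ± 0.20 in vials on day 2 (SD, n = 3 each), and was lower in tanks by −2.43 on day 5 and −2.06 on day 10 as well. In tanks 7 of the 9 fell from day 2 to day 5 and 1 rose, against 39.1% and 34.2% of all genes, the fall of HSM3 being 1.27 and that of RPN14 1.01, and the rise of IRC25 1.03. The base chaperones HSM3 and RPN14 thus fell in tanks while 7 of 10 base genes rose. Over these days in vials 4 of the 9 fell and 1 rose, against 41.1% and 26.5% of all genes. There NAS2 was at −1.32, HSM3 at −0.66 and IRC25 at 0.23.

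Ubiquitin genes and the enzymes that attach ubiquitin moved in both directions, and the counts of day 2 below stand beside the same 38.2% of all genes higher and 39.1% lower. Of 5 genes for ubiquitin and its activating enzyme 1 was higher and 3 lower in tanks on day 2, among them RPL40B at −1.20 and RPL40A at −0.47. Of 11 conjugating enzyme genes 3 were higher and 6 lower. UBC4 was lower in tanks by −1.41, −2.43 and −1.93 on days 2, 5 and 10, while its close paralog UBC5 was higher by 1.10, 0.81 and 0.56. The sequences of these paralogs are nearly alike, so the split of signal between their probe sets is uncertain. RAD6 was lower by −1.51 on day 2. Of 12 ligase genes 6 were higher and 1 lower on day 2, with RSP5 and SAN1 higher by 0.77 and 0.67. The lower gene was UBR2, at −0.28 (adjusted p = 0.0442 in limma). Its call was lost in 12 of the alternatives, with values between −0.34 and −0.0014 (adjusted p up to 0.992). Of 7 deubiquitinase genes 3 were higher and 2 lower, with OTU1 at 0.86, UBP3 at −1.21 and UBP2 at −0.74. Of 7 genes for shuttle receptors and the Cdc48 complex 3 were higher and 1 lower, with DSK2 at 0.70, NPL4 at 0.55 and RAD23 at −0.33.

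In tanks from day 2 to day 5, the conjugating enzyme genes CDC34 and RAD6 rose by 1.85 and 1.39, and 5 of the 11 rose while 2 fell. Of all genes 34.2% rose and 39.1% fell. Of the ligase genes 3 rose and 5 fell, SAN1 by a rise of 1.32 and MUB1, a partner of the ligase that marks Rpn4, by a rise of 1.27, and RKR1 by a fall of 0.91. Of the deubiquitinase genes 2 rose and 4 fell, with rises of 1.41 for DOA4 and 1.15 for UBP3 and falls of 1.51 for YUH1 and 1.20 for OTU1. Of the shuttle and Cdc48 genes 4 rose and 1 fell, with rises of 1.62 for UFD1 and 1.23 for RAD23, and a fall of 1.09 for NPL4. Of the ubiquitin and activating enzyme genes 2 rose and 3 were not called. Many of these changes were also seen in vials, where 26.5% of all genes rose and 41.1% fell. There 7 conjugating enzyme genes rose and 2 fell, 5 ligase genes rose and 4 fell, and 1 deubiquitinase gene rose and 5 fell. SAN1, MUB1, UFD1 and DOA4 rose in vials by 1.29, 0.92, 1.29 and 1.07. OTU1, YUH1 and NPL4 were at −0.93, −0.87 and −0.60. The change was higher in tanks by 1.17 for CDC34 and 0.99 for RAD23.

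The last list held 4 transcription factor genes whose products are reported to act on the RPN4 promoter: HSF1, PDR1, PDR3 and YAP1. On day 2, 3 of them were lower in tanks, among them PDR1 by −0.73 and HSF1 by −0.66, while PDR3 was higher by 0.75. Of all genes 38.2% were higher and 39.1% lower on day 2. On day 5 all 4 were higher in tanks, as were 33.1% of all genes, while 28.8% were lower. From day 2 to day 5 in tanks 3 rose, HSF1 by 1.80 and PDR1 by 1.71, and 1 was not called. Of all genes 34.2% rose and 39.1% fell in tanks over these days. In vials 2 of the 4 rose, HSF1 by 0.74 and PDR1 by 0.46, and 2 were not called. PDR1 had mean log2 signals of 12.11 ± 0.09 on day 5 and 10.40 ± 0.47 on day 2 in tanks (SD, n = 3 each). The change was larger in tanks than in vials by 1.25 for PDR1 and 1.20 for YAP1, and by 1.06 for RPN4 as given above. Of 8 genes of stationary phase, 1 was higher in tanks on day 2, SNZ1 by 2.04, and 4 were lower, among them DDR2 by −1.37 and HSP12 by −1.19, with a median of −0.60. Of the 8, 2 rose and 3 fell in tanks from day 2 to day 5, and 3 rose and 3 fell in vials. Of all genes 26.5% rose and 41.1% fell in vials, with the tank shares as given above.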

How the data were processed

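Total RNA (100 ng per sample) was amplified and hybridised to 18 Affymetrix arrays, 3 per group. Each deposited value is a probe set's summary intensity on a linear scale, which the authors made with the Affymetrix Expression Console and RMA, per the submitters' processing notes (no version is given there). They ran from 4.79 to 39396, and log2 was taken here. The table held 10928 probe sets. Left out were 166 controls, 1 with several genes, 1746 whose listed gene is not in the reference of S. cerevisiae (R64, 6477 genes) and 3517 without a listed gene. The other 5498 stood for 5449 genes, and for 47 genes the probe set with the highest mean was kept. Background was the 95th percentile of the mean log2 signals of the 1746. The number of arrays limits the precision.

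limma 3.58.1 in R 4.3.3 (data.table version 1.17.8) fitted 6 group means to 18 arrays (12 residual degrees of freedom), with p-values adjusted over 5449 genes in each of 9 comparisons. Named in each comparison were up to 4 called members per direction, RPN4, UMP1, BLM10 and ECM29. Of each related list (63 genes, all matched), up to 2 called genes per direction were eligible to be named. They were named mainly for day 2 and for the change from day 2 to day 5, and not all are given. Other members are named to account for all of them. The members, lists and tests were chosen with earlier results of these data known. Alternatives were a repeated quantile normalization, centring of arrays, a filter on dim genes, the probe set of highest variance, array weights, a trended and robust prior, a fit of only the groups compared, a 2-fold change, removal of a trend on gene length (lowess span 0.3), replicate blocks, and leaving out each array. Deviations from the group means of same-numbered tank arrays of days 5 and 10 correlated at −0.47, 0.38 and 0.76 for numbers 1, 2 and 3. Whether replicate numbers pair the arrays was not settled, and the main fit did not pair them. The p-values thus rest on the spread among replicates that the labels call biological. Whether successive days were sampled from the same vessels is not stated there. The fit was also run on simulated data, and the outcome of that run is not given here. Promoter sequences were not used here. Plots were made in matplotlib 3.10.9 and pandas 2.3.3 under Python 3.11.15.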

Additional observations from a re-analysis of the deposited data

Results flagged for a closer look

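The change from day 2 to day 5 differed between tanks and vials by the test of the difference itself for 22 proteasome genes. It was called higher in tanks for 20 and lower for 2 of the 36, against 32.9% and 25.9% of all genes. RPN4 rose by 1.06 log2 units more in tanks than in vials. For RPN11 the difference was 0.86, and its change in vials was not called. RPN5 rose in tanks and fell in vials, a difference of 1.01. For RPN2 the difference was 0.85, which became 0.52 (adjusted p = 0.0446 in limma) without tank replicate 3 of day 2 and was no longer called without tank replicate 3 of day 5 (adjusted p = 0.0509). For ECM29 it was 0.46. In the other direction the difference was −0.64 for RPN10 and −0.28 for PRE2, whose call was lost without 1 or another of 3 arrays of day 2 (adjusted p between 0.0562 and 0.0823).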

How the results depend on the processing

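Of 139 called results of members, 105 kept their call with every array left out and 107 under every other alternative except the 2-fold rule, and 0 changed sign. A 2-fold change left 1 higher and 4 lower on day 2, 0 and 0 on days 5 and 10, 2 rises and 1 fall in tanks and 0 and 0 in vials from day 2 to day 5, 0 falls at either scale from day 5 to day 10, and 2 higher and 0 lower for the difference in change from day 2 to day 5. Array weights gave 8 lower on day 5, 11 higher on day 10, 5 rises in vials from day 2 to day 5, 3 rises and 10 falls in vials and 5 rises in tanks from day 5 to day 10, 4 lower for the difference in change from day 2 to day 5, and 1 higher and 4 lower for that from day 5 to day 10. With array weights the core minus regulatory median was −0.39 in tanks from day 2 to day 5 and −0.15 from day 5 to day 10. The weights were uneven, from 0.163 to 5.19. The heaviest were 5.19 for vial replicate 1 of day 2, 4.53 for tank replicate 3 of day 10 and 3.31 for vial replicate 2 of day 5. Weighted results thus lean on single arrays in these groups. Quantile normalization gave 7 lower on day 5 and 4 rises in vials from day 2 to day 5, and it gave a day 2 median of all genes of 0.11, against −0.01 for the values as deposited. Centring gave 7 rises in vials from day 2 to day 5. Only the groups compared gave 7 higher on day 5, 4 rises in vials from day 2 to day 5 and 8 falls in tanks from day 5 to day 10. Removing the length trend gave 1 rise each in vials and tanks from day 5 to day 10, and core minus regulatory medians of 0.45, 0.15 and 0.15 on days 2, 5 and 10. The cause was not tested in any of these. All 36 members lay above background on all 18 arrays.

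With each array left out, higher and lower calls ran from 6 to 9 and 17 to 20 on day 2, 8 to 12 and 2 to 7 on day 5, and 5 to 7 and 4 to 7 on day 10. From day 2 to day 5 they ran from 13 to 15 and 7 to 11 in tanks, 2 to 4 and 13 to 15 in vials, and 16 to 20 and 1 to 2 for the difference. From day 5 to day 10 they ran from 0 to 3 and 13 to 17 in tanks, 0 to 1 and 3 to 6 in vials, and 0 to 1 and 0 to 1 for the difference. The core minus regulatory median ran from 0.19 to 0.29, −0.013 to 0.021 and −0.011 to 0.13 between the scales on days 2, 5 and 10. It ran from −0.55 to −0.41 in tanks, −0.18 to −0.08 in vials and −0.42 to −0.31 for the difference from day 2 to day 5. It ran from −0.10 to −0.01 in tanks, −0.07 to −0.01 in vials and −0.11 to −0.00090 for the difference from day 5 to day 10.

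Values near 0 that were not called changed sign. With array weights, ECM29 was −0.011 between the scales on day 10, and BLM10 was 0.039 in vials from day 2 to day 5 and −0.042 from day 5 to day 10. With centring BLM10 was 0.053 in vials from day 2 to day 5. With the length trend removed, BLM10 was −0.024 in vials and UMP1 −0.10 in tanks from day 5 to day 10. With each array left out, ECM29 on day 10 ran from −0.029 to 0.040. BLM10 in vials ran from −0.080 to 0.050 from day 2 to day 5 and from −0.061 to 0.069 from day 5 to day 10. UMP1 in tanks from day 5 to day 10 ran from −0.065 to 0.20. In the difference from day 5 to day 10, BLM10 ran from −0.13 to 0.0039 and UMP1 from −0.23 to 0.031.

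With the replicate block, 13 of 317 called results of named genes lost their call, among them SCL1 on day 5 (adjusted p = 0.0587) and in tanks from day 5 to day 10 (0.0512), RPN6 in tanks from day 2 to day 5 (0.0603) and PRE7 in tanks from day 5 to day 10 (0.0553), all by limma. Deviations of arrays with the same number correlated between −0.47 and 0.76, and the correlation of replicates within a scale was −0.0188.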
